A study of Homo sapiens with 9 samples.

Results

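The genes described here are 31 autophagy and lysosome genes measured in the human hepatocellular carcinoma line HuH-7. They come from a list of symbols, and each matched 1 of the 63677 gene identifiers of the count files. All 31 passed the filter on low counts, at least 1 CPM (counts scaled by library size) in at least 2 libraries, as did 18237 genes in all. The labels describe 9 cultures, each sequenced as 1 library of ribosomal RNA-depleted total RNA on an Ion Torrent Proton. The treated cultures received acetaminophen at 10 mM, acetaminophen with serum exosomes, exosomes alone, acetaminophen with caffeine, caffeine at 2 mM, arsenic at 5 µM, arsenic at 15 µM, or arsenic at 5 µM with copper at 5 µM, and the last culture was the untreated control. In both exosome cultures the labelled dose was the exosomes from 1 ml of serum, per a number of cells that the labels print unclearly. The sources used here do not state the chemical form of arsenic and copper, the exposure times or the serum source. HuH-7 is a tumour line, so these cultures model hepatoma cells and not normal liver.

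Autophagy encloses cytoplasm, protein aggregates or organelles in a double membrane, the autophagosome, which fuses with the lysosome for degradation. The ULK1 kinase complex starts the process, the Beclin 1 lipid kinase complex and WIPI proteins mark the growing membrane, and ubiquitin-like enzymes attach proteins of the ATG8 type (LC3 and GABARAP) to its lipid. Cargo receptors such as p62, the product of SQSTM1, tie cargo to ATG8-type proteins and are degraded with it. In the lysosome, a proton pump (V-ATPase) acidifies the interior for hydrolases such as the cathepsins, and the factors TFEB and TFE3 activate many of these genes through a short promoter element. In liver, autophagy is known to remove damaged mitochondria and protein adducts, and p62 also binds KEAP1, the inhibitor of the oxidative stress factor NRF2. The values below are RNA levels, and autophagic flux was not measured.

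Gene counts per library ran from 658725 (acetaminophen with exosomes) to 8227906 (caffeine), with 951816 in the control, and summary lines for reads given to no gene took 42.3% to 70.3% of all deposited counts. A level of 20 CPM rests on 16 to 170 counts in these libraries, and on 21 in the control. All 12 hepatocyte and hepatoma markers reached 1 CPM in every library, with a summed level of 9770 CPM (arsenic 15 µM) to 29700 CPM (acetaminophen) and 22300 CPM in the control. The 12 blood and platelet markers summed to 27.7 to 274 CPM, of which LYZ made up 26.2 to 272 CPM, and HBA2, PPBP and PF4 were at 0 in every library. Those blood sums were 121, 27.7 and 45.3 CPM in the libraries with arsenic at 5 µM, at 15 µM and with copper, against 170 CPM in the control, and their part in the results was not tested. The 8 stromal and endothelial markers summed to 24.2 to 61.4 CPM, with PECAM1 at 0 throughout. Libraries stood apart in base composition: over 10355 protein-coding genes, the log2 deviation of a library from the mean of all libraries correlated with transcript GC content at r = -0.63 with acetaminophen and -0.50 with arsenic 5 µM, against 0.26 in the control (genes are not independent replicates). The other libraries lay between -0.12 and 0.42. With log transcript length the control had r = -0.44, the strongest of the 9 libraries, and it is the denominator of most ratios below. Ratios with trends removed are values after each library's GC and length trend over protein-coding genes was taken out. In bulk RNA, fewer cells of a type and less RNA per cell cannot be told apart.

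Promoter sequence shows which members carry the element that TFEB and TFE3 are known to bind. RefSeq windows (GRCh38.p14, 250 bases before to 50 after a gene start) matched 26 of the 31 members with 34 windows. The palindrome TCACGTGA, searched on both strands, lay in the windows of ATG3, ATP6V0D1, CTSA, LAMP1 and MCOLN1, which is 5 of 34 windows (14.7%), against 344 of 35116 windows of all genes (0.98%). Its core CACGTG, which lies inside it, was in 6 of 34 windows (17.6%), CTSD added, against 7.26% of all windows. TGACNNNGC, a core of the antioxidant response element, was in 7 member windows (20.6%) against 13.3% of all, and TGATGNAA, an element of the amino acid stress response, was in none, against 3.62% of all. Fragments of 90 bases are shown for ATP6V0D1 (chr16:67481158-67481247, minus strand), CTSA (chr20:45891263-45891352, plus strand) and MCOLN1 (chr19:7522552-7522641, plus strand), which varied most widely among the motif holders, and for ATG3 (chr3:112561921-112562010, minus strand), which was apart in no pair of libraries. Capitals mark CACGTG or TCACGTGA, and each line runs 5′ to 3′ along the gene.
ATP6V0D1: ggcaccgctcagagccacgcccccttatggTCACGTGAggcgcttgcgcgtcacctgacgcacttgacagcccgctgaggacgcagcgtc
CTSA: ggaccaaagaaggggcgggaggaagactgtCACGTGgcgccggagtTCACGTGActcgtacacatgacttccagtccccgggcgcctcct
MCOLN1: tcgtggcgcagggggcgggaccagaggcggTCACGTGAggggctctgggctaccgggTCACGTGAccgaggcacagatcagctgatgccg
ATG3: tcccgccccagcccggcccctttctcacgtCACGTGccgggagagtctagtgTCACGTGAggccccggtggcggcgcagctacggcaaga
A match describes these letters in this window and is not evidence of binding.

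The members were highest as a group with arsenic at 15 µM. In that library 17 of 31 members were higher than in the control and none was lower, against 16.5% of all genes higher and 14.4% lower. Here and below, 2 libraries are called apart in a gene when its CPM, scaled by the trimmed mean of M values (TMM), differs 2-fold or more in either direction once 0.5 prior counts are added, and the exact conditional binomial 95% interval of the ratio leaves out 1. The interval covers counting error only, since no condition was replicated. The median log2 ratio of the members was 1.27, against -0.16 over all genes. Of the 31 members, 15 (48.4%) had their highest level of the 9 libraries at 15 µM, against 3182 of all genes tested (17.4%) and 20.1% of protein-coding genes. In the same pair, as for arsenic 5 µM against the control, 7 of the 12 hepatocyte and hepatoma markers were lower and none was higher, and their part in the result was not tested.

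**Figure D1:**
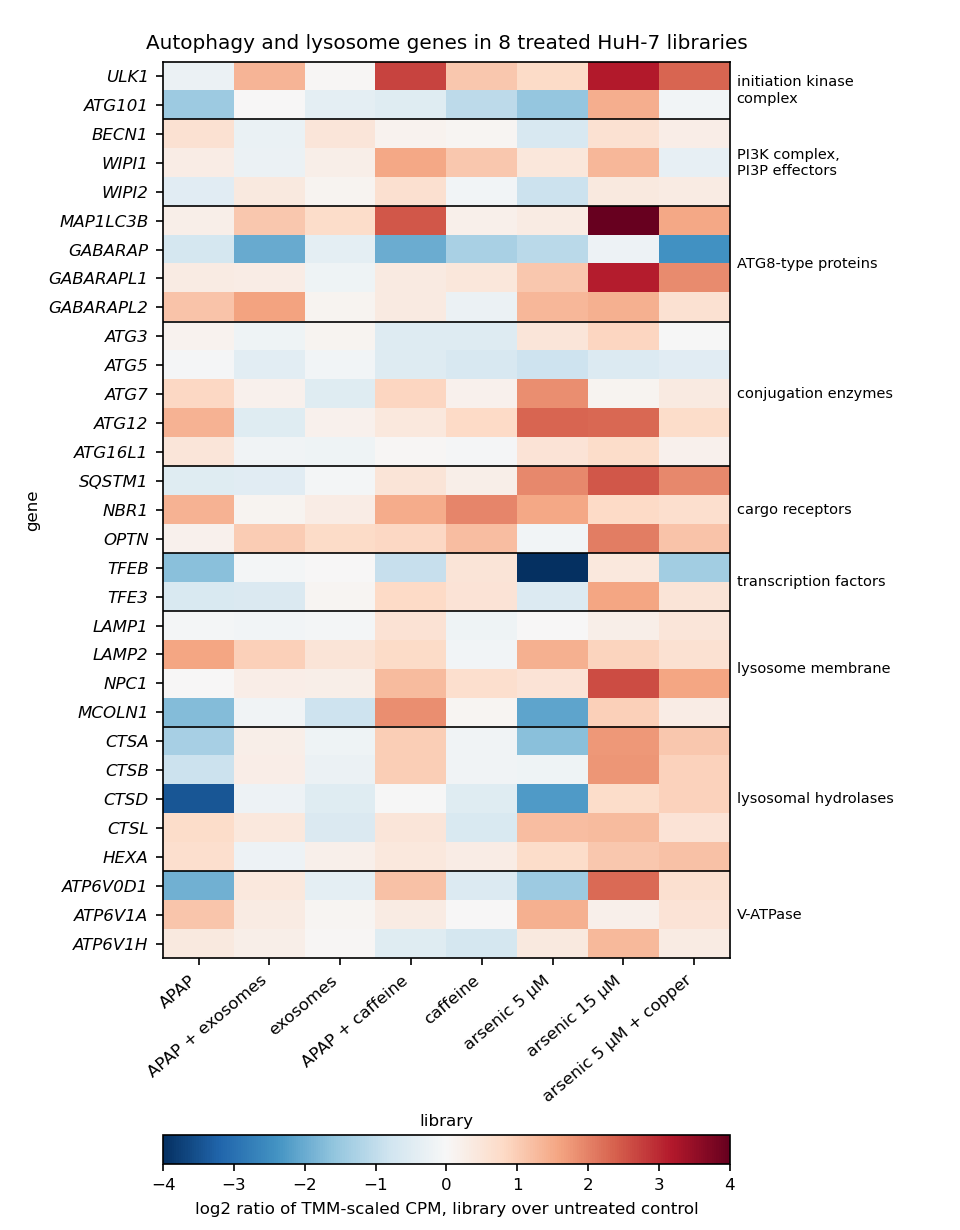
Log2 ratio of TMM-scaled CPM (0.5 prior counts) of each of the 31 members (rows, grouped by role) in 8 treated libraries (columns) over the untreated control, 1 library each (APAP, acetaminophen). The arsenic 15 µM column holds 17 members that were apart and higher and none lower, and the CTSD and ATP6V0D1 cells are blue with acetaminophen and with arsenic 5 µM. The TFEB cell at arsenic 5 µM rests on 0 counts, so its colour depends on the prior.

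At the start of the pathway, ULK1, the initiating kinase, had 47.8 CPM with arsenic 5 µM, 257 CPM with arsenic 15 µM and 142 CPM with arsenic and copper. Its level was 23.9 CPM with acetaminophen, 72.7 CPM with acetaminophen and exosomes, 29.6 CPM with exosomes, 185 CPM with acetaminophen and caffeine and 59.9 CPM with caffeine, against 28.1 CPM in the control. It was thus high in 3 libraries, and it was apart and higher in 9 of 12 pairs of libraries. The ratio to the control was 9.16 at 15 µM (95% interval 6.32 to 13.8) and 5.07 with copper (3.48 to 7.68). ATG101, a scaffold subunit of the ULK1 complex, had 21.7, 176 and 59.1 CPM with arsenic at 5 µM, at 15 µM and with copper, against 63.9 CPM in the control. Its ratio to the control was 0.341 at 5 µM (0.232 to 0.498) and 2.75 at 15 µM (2.13 to 3.62), so the 2 doses lay on opposite sides of the control, but with trends removed the 5 µM ratio was 0.934 (0.634 to 1.36) and that pattern was lost. In the other libraries ATG101 had 23.2 CPM with acetaminophen, 65.0 CPM with acetaminophen and exosomes, 49.1 CPM with exosomes, 46.3 CPM with acetaminophen and caffeine and 30.7 CPM with caffeine. Of the phosphoinositide step, BECN1 (Beclin 1), WIPI1 and WIPI2, WIPI1 alone was apart from the control at 15 µM, with 20.5 CPM against 7.74 CPM (ratio 2.65, 1.26 to 6.43), on 8 control counts. BECN1 ranged from 26.9 to 64.0 CPM and WIPI2 from 40.9 to 116 CPM over the 9 libraries.

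The ATG8-type genes moved unequally. MAP1LC3B, which encodes LC3B, had 17.5 CPM with arsenic 5 µM, 223 CPM with arsenic 15 µM and 40.9 CPM with arsenic and copper. It had 16.2 CPM with acetaminophen, 29.3 CPM with acetaminophen and exosomes, 23.3 CPM with exosomes, 77.5 CPM with acetaminophen and caffeine and 16.0 CPM with caffeine, against 13.5 CPM in the control. The 15 µM library stood above all others, at 16.4 times the control (9.72 to 30.2), where the control value rests on 14 counts. GABARAPL1 had 66.1, 276 and 116 CPM with arsenic at 5 µM, at 15 µM and with copper, and 39.4 CPM with acetaminophen, 38.3 CPM with acetaminophen and exosomes, 27.8 CPM with exosomes, 40.4 CPM with acetaminophen and caffeine and 42.6 CPM with caffeine, against 31 CPM in the control. All 3 arsenic libraries lay above the other 6, with ratios to the control of 2.13, 8.91 and 3.73 at 5 µM, at 15 µM and with copper. GABARAPL2 had 35.0, 37.0 and 21.2 CPM in the same 3 arsenic libraries, and 30.3 CPM with acetaminophen, 42.1 CPM with acetaminophen and exosomes, 15.0 CPM with exosomes, 17.8 CPM with acetaminophen and caffeine and 11.7 CPM with caffeine, against 13.5 CPM in the control. GABARAP went the other way: it had 5.97, 11.1 and 2.23 CPM in the 3 arsenic libraries and 7.74 CPM with acetaminophen, 2.55 CPM with acetaminophen and exosomes, 9.88 CPM with exosomes, 3.21 CPM with acetaminophen and caffeine and 5.28 CPM with caffeine, against 12.6 CPM in the control. By level no treated library exceeded the control, and GABARAP was apart and lower with arsenic and copper (ratio 0.177, 0.0553 to 0.5), on 6 counts against 13. MAP1LC3B and GABARAPL1 have near-identical copies in the genome (MAP1LC3B2 and GABARAPL3), so their counts are uncertain where reads were split or dropped.

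**Figure D2:**
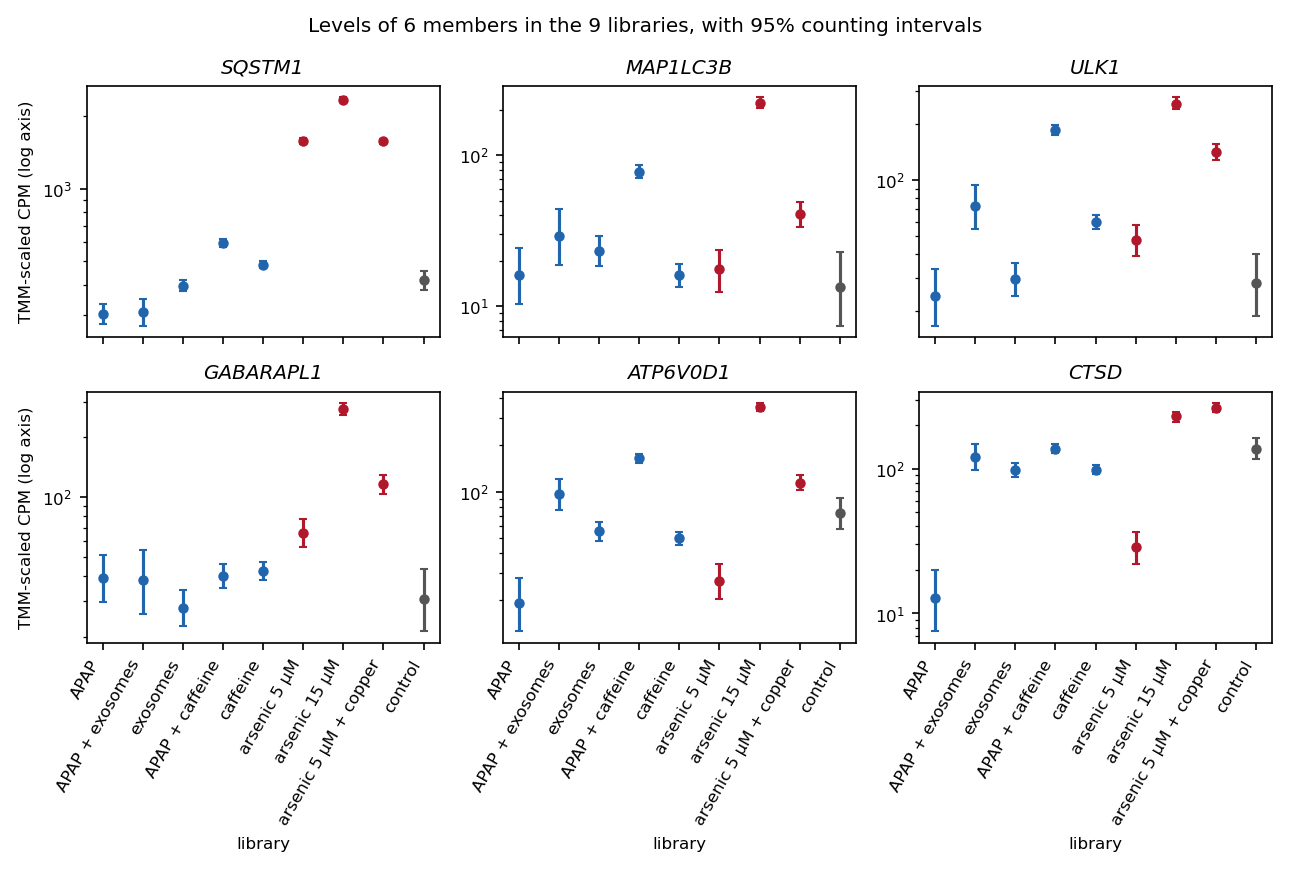
TMM-scaled CPM (log axis, different range in each panel) of 6 members in each library, with exact Poisson 95% counting intervals; arsenic libraries are red, other treated libraries blue and the control grey (APAP, acetaminophen). SQSTM1 and GABARAPL1 are highest in the 3 arsenic libraries, ULK1 and MAP1LC3B are high at 15 µM and with acetaminophen and caffeine, and ATP6V0D1 and CTSD are lowest with acetaminophen and arsenic 5 µM.

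Of the 5 enzymes and partners that attach ATG8-type proteins to lipid, ATG7 and ATG12 were apart in some pairs and the others in none. ATG3 (the E2 enzyme for lipidation), ATG5 and ATG16L1 (parts of the ligase complex) were apart in none of the 12 pairs, with ranges of 38.6 to 101 CPM, 25.2 to 44.5 CPM and 43.4 to 80.5 CPM. With trends removed, ATG3 was apart at 15 µM (2.22 times the control, 1.68 to 3.03) and ATG5 at 5 µM (0.341 of the control, 0.229 to 0.514). ATG12, which is joined to ATG5, had 84.4, 83.8 and 27.9 CPM with arsenic at 5 µM, at 15 µM and with copper. It had 44.3 CPM with acetaminophen, 11.5 CPM with acetaminophen and exosomes, 18.9 CPM with exosomes, 22.7 CPM with acetaminophen and caffeine and 29.4 CPM with caffeine, against 16.4 CPM in the control. The ratio to the control was 5.13 at 5 µM (3.13 to 8.99) and 5.09 at 15 µM (3.11 to 8.89), and with trends removed it was 2.38 (1.49 to 4.29) at 5 µM and 4.94 (3.10 to 8.87) at 15 µM. ATG7, the E1 enzyme, had 141, 42.4 and 49.8 CPM with arsenic at 5 µM, at 15 µM and with copper. It had 69.7 CPM with acetaminophen, 43.4 CPM with acetaminophen and exosomes, 27.5 CPM with exosomes, 70.3 CPM with acetaminophen and caffeine and 44.0 CPM with caffeine, against 38.7 CPM in the control. ATG7 was high at 5 µM, 3.64 times the control (2.61 to 5.18), and its ratio of 15 µM over 5 µM was 0.301 (0.242 to 0.373).

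Among the cargo receptors, SQSTM1 had 1580, 2340 and 1580 CPM with arsenic at 5 µM, at 15 µM and with copper. It had 302 CPM with acetaminophen, 307 CPM with acetaminophen and exosomes, 397 CPM with exosomes, 597 CPM with acetaminophen and caffeine and 485 CPM with caffeine, against 417 CPM in the control. The arsenic libraries did not overlap the others, and their ratios to the control were 3.79 (3.43 to 4.19), 5.62 (5.10 to 6.21) and 3.78 (3.42 to 4.18). HEXA also lay above the others in the arsenic libraries, with 124, 160 and 169 CPM against 119 CPM with acetaminophen, the highest elsewhere. The share of all genes with such a gap was not computed, here or for GABARAPL1. SQSTM1 and GABARAPL1 were the 2 members apart and higher in all 3 arsenic libraries, and no member was lower in all 3. Of all genes, 16.4%, 16.5% and 9.22% were higher at 5 µM, at 15 µM and with copper. The share of all genes higher or lower in all 3 was not computed. NBR1, a receptor related to p62, had 128, 76.2 and 69.9 CPM in the arsenic libraries at 5 µM, at 15 µM and with copper. It had 114 CPM with acetaminophen, 47.2 CPM with acetaminophen and exosomes, 53.6 CPM with exosomes, 122 CPM with acetaminophen and caffeine and 169 CPM with caffeine, against 43.5 CPM in the control. Its highest level was with caffeine, 3.89 times the control (2.89 to 5.35). OPTN, optineurin, a receptor known for mitochondria and bacteria, had 20.9, 94.2 and 50.2 CPM in those arsenic libraries, and 25.3 CPM with acetaminophen, 45.9 CPM with acetaminophen and exosomes, 38.6 CPM with exosomes, 40.1 CPM with acetaminophen and caffeine and 52.9 CPM with caffeine, against 22.3 CPM in the control. OPTN was 4.23 times the control at 15 µM (2.76 to 6.80) and 2.38 times with caffeine (1.56 to 3.79).

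TFE3 had 43.9, 192 and 91.4 CPM with arsenic at 5 µM, at 15 µM and with copper, against 63.9 CPM in the control, and 42.1 to 113 CPM in the other 5 libraries. It was apart from the control at 15 µM (ratio 3.01, 2.33 to 3.95). TFEB had few counts in every library. It had 0, 4.31 and 1.11 CPM in those 3 arsenic libraries, 0.704 CPM with acetaminophen, 2.55 CPM with acetaminophen and exosomes, 3.29 CPM with exosomes, 1.70 CPM with acetaminophen and caffeine and 4.81 CPM with caffeine, against 2.90 CPM in the control, which is 3 counts. The 0 counts at 5 µM allow up to 1.28 CPM by a limit of 3 counts, or 1.57 CPM by the exact Poisson 95% interval, and no fold is given against the control. TFEB was lower with acetaminophen and caffeine than with caffeine (9 counts against 41, ratio 0.354, 0.151 to 0.739).

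Of the lysosome membrane genes, NPC1, the cholesterol exporter, had 118, 488 and 239 CPM with arsenic at 5 µM, at 15 µM and with copper, against 80.3 CPM in the control, with ratios of 6.08 at 15 µM (4.87 to 7.68) and 2.98 with copper (2.37 to 3.79). The other 5 libraries lay between 81.6 and 195 CPM. LAMP1, an abundant glycoprotein of the membrane, was apart in no pair (105 to 174 CPM). LAMP2, its relative needed for fusion and chaperone-mediated uptake, had 75.9, 52.9 and 43.1 CPM in those arsenic libraries and 85.2 CPM with acetaminophen, 54.8 CPM with acetaminophen and exosomes, 41.0 CPM with exosomes, 48.6 CPM with acetaminophen and caffeine and 26.5 CPM with caffeine, against 28.1 CPM in the control. It was thus highest with acetaminophen, at 3.03 times the control (2.01 to 4.72), but at 1.51 times (1.01 to 2.38), no longer apart, with trends removed. MCOLN1, a lysosomal calcium channel, had 5.54, 47.8 and 30.5 CPM with arsenic at 5 µM, at 15 µM and with copper. It had 7.04 CPM with acetaminophen, 21.7 CPM with acetaminophen and exosomes, 13.8 CPM with exosomes, 88.8 CPM with acetaminophen and caffeine and 25.9 CPM with caffeine, against 24.2 CPM in the control. The lowest 2 libraries were arsenic 5 µM and acetaminophen, on 13 and 10 counts.

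The hydrolases CTSA, CTSB, CTSD, CTSL (cathepsins) and HEXA (a hexosaminidase subunit) split by library. CTSD had 28.6, 230 and 265 CPM with arsenic at 5 µM, at 15 µM and with copper. It had 12.7 CPM with acetaminophen, 121 CPM with acetaminophen and exosomes, 98.2 CPM with exosomes, 138 CPM with acetaminophen and caffeine and 98.9 CPM with caffeine, against 138 CPM in the control. The acetaminophen and arsenic 5 µM libraries were far below the rest, at 0.0916 (0.0528 to 0.150) and 0.206 (0.152 to 0.278) of the control. With trends removed these ratios were 0.256 (0.144 to 0.409) with acetaminophen and 0.509 (0.373 to 0.682), no longer apart, with arsenic 5 µM. CTSA had 36.7, 391 and 248 CPM in the 3 arsenic libraries and 46.4 CPM with acetaminophen, 136 CPM with acetaminophen and exosomes, 105 CPM with exosomes, 230 CPM with acetaminophen and caffeine and 106 CPM with caffeine, against 117 CPM in the control. Like ATG101 and ATP6V0D1, CTSA was lower than the control at 5 µM (ratio 0.313, 0.235 to 0.416) and higher at 15 µM (3.34, 2.76 to 4.06). With trends removed, the 5 µM ratios were 0.553 for CTSA, 0.557 for ATP6V0D1 and 0.934 for ATG101, none of them apart, while all 3 remained higher at 15 µM. CTSB was 3.39 times the control at 15 µM (817 against 241 CPM, 2.97 to 3.88), CTSL 2.42 times (1.86 to 3.20) and HEXA 2.15 times (160 against 74.5 CPM, 1.68 to 2.77), and HEXA was not apart with trends removed (1.65). CTSL had 148, 152 and 92.2 CPM with arsenic at 5 µM, at 15 µM and with copper, and 105 CPM with acetaminophen, 84.2 CPM with acetaminophen and exosomes, 42.2 CPM with exosomes, 87.9 CPM with acetaminophen and caffeine and 41.3 CPM with caffeine, against 62.9 CPM in the control. The V-ATPase subunit ATP6V0D1, of the membrane sector, had 26.4, 350 and 114 CPM with arsenic at 5 µM, at 15 µM and with copper. It had 19.0 CPM with acetaminophen, 96.9 CPM with acetaminophen and exosomes, 55.4 CPM with exosomes, 164 CPM with acetaminophen and caffeine and 50.1 CPM with caffeine, against 72.6 CPM in the control. Its ratio of 15 µM over 5 µM was 13.2 (10.2 to 17.4), and 8.29 (6.46 to 11) with trends removed. ATP6V1A, the catalytic subunit, went the other way between doses, with 137 CPM at 15 µM against 317 CPM at 5 µM (ratio 0.432, 0.381 to 0.489; 0.756 and not apart with trends removed) and 118 CPM in the control. It had 173 CPM with copper, 258 CPM with acetaminophen and 121 to 149 CPM in the other 4 libraries. ATP6V1H, a regulatory subunit, was 41.3 CPM at 15 µM against 16.4 CPM in the control (ratio 2.51, 1.5 to 4.46).

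In the acetaminophen comparison, 5 members were higher and 5 lower than in the control, against 13% and 12.1% of all genes. The higher ones were GABARAPL2, ATG12, NBR1, LAMP2 and ATP6V1A, and the lower ones ATG101, MCOLN1, CTSA, CTSD and ATP6V0D1. The 5 higher members have transcript GC contents of 37.5% to 44.9% and the 5 lower ones of 58.1% to 64.0%. Across the 31 members the log2 ratio and GC content had r = -0.79. With trends removed, none of the 5 higher members was apart, CTSL alone was higher (2.40, 1.79 to 3.28), and of the 5 lower members CTSD (0.256) and ATP6V0D1 (0.429, 0.263 to 0.667) remained lower. With arsenic 5 µM, 9 members were higher and 5 lower than in the control, against 16.4% and 15% of all genes, and r with GC was -0.56. With trends removed, 9 were again higher, 7 of them the same genes, with SQSTM1 at 6.13 times the control and ATG7 at 3.63. None of the 5 lower members stayed apart, and the 2 then lower were BECN1 (0.495, 0.332 to 0.751) and ATG5. At 15 µM r was 0.23, and 18 members were higher and none lower after trend removal, 16 of them among the 17 above. The shares of all genes were then 16.3% higher and 11.5% lower.

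**Figure D3:**
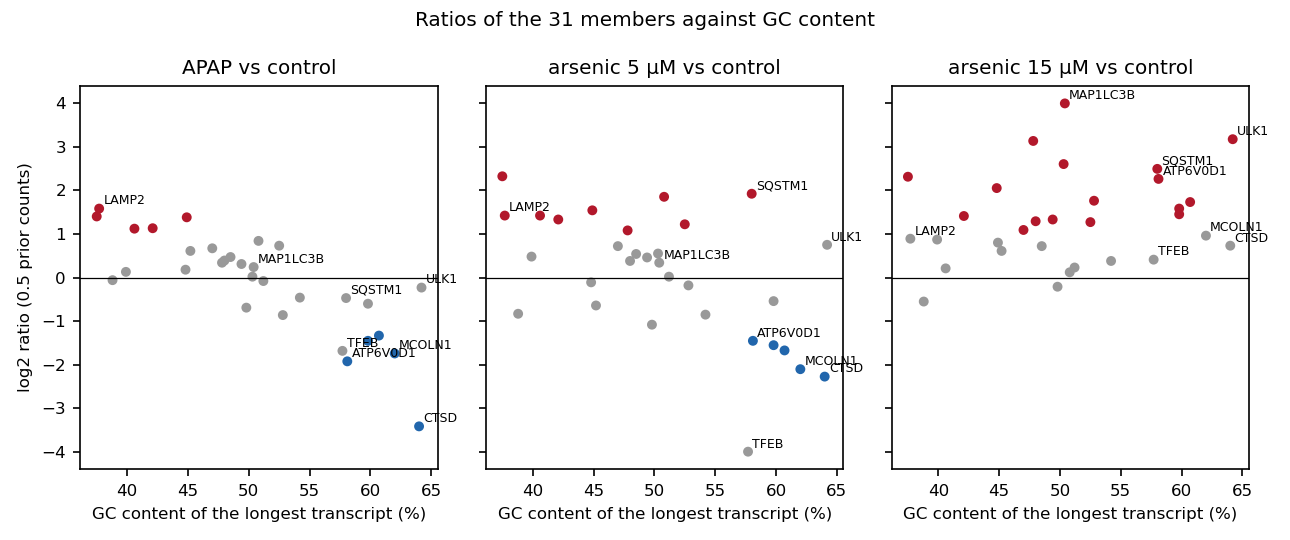
Log2 ratio to the control (vertical axis, 0.5 prior counts) of the 31 members against the GC content of their longest transcript (horizontal axis), for acetaminophen, arsenic 5 µM and arsenic 15 µM; red points were apart and higher, blue points apart and lower, grey points not apart. The points slope down with acetaminophen (r = -0.79) and arsenic 5 µM (r = -0.56) and show no such slope at 15 µM (r = 0.23); TFEB at arsenic 5 µM has 0 counts and its height depends on the prior.

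With exosomes present, 3 members were higher and none lower (acetaminophen with exosomes against exosomes), against 5.22% and 5.14% of all genes. GABARAPL2 was at 42.1 against 15.0 CPM (ratio 2.81, 1.75 to 4.45) and ULK1 at 72.7 against 29.6 CPM (2.45, 1.74 to 3.43). With trends removed these 2 stayed higher, CTSL (1.97) was no longer apart, and GABARAP was lower (0.31, 0.0293 to 0.986), on 2 counts against 33. Of all genes, 4.55% were then higher and 5.07% lower. With caffeine present, 7 members were higher and 1 lower, against 12.6% and 13% of all genes. MAP1LC3B was at 77.5 against 16.0 CPM (4.86, 3.99 to 5.94), ATP6V0D1 at 164 against 50.1 CPM (3.28, 2.92 to 3.69), MCOLN1 at 88.8 against 25.9 CPM (3.43, 2.91 to 4.04) and CTSA at 230 against 106 CPM (2.18, 2.00 to 2.38). The last 3 were lower with acetaminophen alone than in the control. With trends removed, CTSA was at 1.69 (1.55 to 1.84) and no longer apart in the caffeine pair, and MCOLN1 and CTSA were no longer apart with acetaminophen alone (0.719 and 0.766). An edgeR term for acetaminophen by caffeine called none of them (adjusted p = 1 for every member, 0 genes called of 18237, 198 at an unadjusted p under 0.05).

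Exosomes alone left every member within the limits, with 0 higher and 0 lower, against 3.57% and 1.44% of all genes. Added to acetaminophen, they went with 7 members higher and 2 lower, against 10.2% and 8.89% of all genes. CTSD was at 121 against 12.7 CPM (ratio 9.56, 5.74 to 16.8) and ATP6V0D1 at 96.9 against 19.0 CPM (5.10, 3.25 to 8.23), while ATG12 was at 11.5 against 44.3 CPM (0.259, 0.113 to 0.523). With trends removed these ratios were 4.01, 3.48 and 0.475, and 4 members were higher and 1 lower. Caffeine against the control had 4 members higher (NBR1, OPTN, ULK1, WIPI1) and 2 lower (ATG101, GABARAP), against 11.6% and 8.63% of all genes. ULK1, ATG101 and GABARAP were no longer apart with trends removed. Caffeine added to acetaminophen had 11 higher and 1 lower, against 18.8% and 15% of all genes, led by MCOLN1 (88.8 against 7.04 CPM, ratio 12.6, 6.80 to 26.5) and CTSD (138 against 12.7 CPM, 10.9, 6.83 to 18.5), whose ratios with trends removed were 4.55 and 3.45. Both pairs that use the acetaminophen library as denominator followed GC content across members (r = 0.74 and 0.81).

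**Figure D4:**
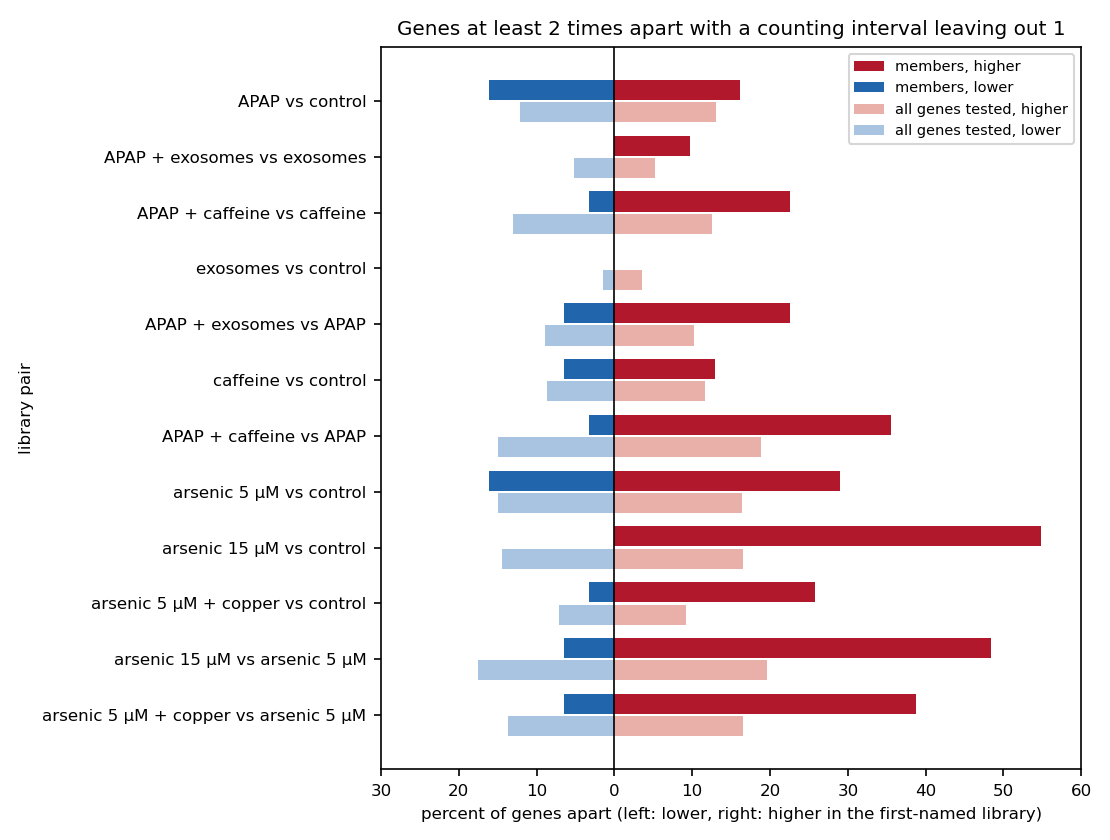
Percent of the 31 members (dark bars) and of the 18237 genes tested (pale bars) that were apart in each of the 12 library pairs, higher to the right of 0 and lower to the left (APAP, acetaminophen). The dark bar to the right is longest for arsenic 15 µM against the control (17 of 31 members), and exosomes against the control has no dark bar.

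Arsenic with copper had 8 members higher and 1 lower than the control, against 9.22% and 7.11% of all genes. Set against arsenic 5 µM, the 15 µM library had 15 members higher and 2 lower, against 19.6% and 17.5% of all genes, and the copper library 12 higher and 2 lower, against 16.5% and 13.7%. CTSD was 265 against 28.6 CPM with copper over arsenic 5 µM alone (ratio 9.27, 7.21 to 12.1), and CTSA 248 against 36.7 CPM (6.75, 5.39 to 8.55). ATG7 and ATG12 were lower with copper than with arsenic 5 µM alone, at 0.354 (0.287 to 0.434) and 0.330 (0.250 to 0.433). With trends removed CTSD was at 3.48, CTSA at 3.39, ATG7 at 0.326 and ATG12, no longer apart, at 0.742. Across members r with GC was 0.67 for 15 µM over 5 µM and 0.71 for copper over 5 µM, and these pairs share the 5 µM library. After trend removal 17 members were higher and 1 lower at 15 µM over 5 µM, against 17.6% and 14.8% of all genes. With copper over 5 µM, 7 were then higher and 4 lower, against 10.5% and 9.24% of all genes.

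A model with all 9 libraries (edgeR's quasi-likelihood test, terms for acetaminophen, exosomes, caffeine and arsenic, 4 residual degrees of freedom) takes departures from additivity as the spread, and its calls are p under 0.05 after Benjamini-Hochberg adjustment over all genes. Arsenic was entered as present or absent, so differences of dose and copper among its libraries also enter that spread. No member was called for acetaminophen, where 0.00548% of all genes were called higher and 0.0165% lower, or for exosomes (0% and 0%), caffeine (0.0219% and 0.0603%) or arsenic (0.34% and 0.154%). At an unadjusted p under 0.05 there were 0, 0, 1 and 6 members for acetaminophen, exosomes, caffeine and arsenic. The shares of all genes were 5.34%, 0.62%, 7.31% and 9.17%. In the same order DESeq2 called 0, 0, 0 and 2 members, and 52, 0, 56 and 175 of 18237 genes. The smallest p for acetaminophen belonged to GABARAPL2 (log2 fold change 1.07, SE 0.57) and CTSL (0.94, SE 0.54), and for exosomes to ATG12 (-0.94, SE 0.76) and OPTN (0.82, SE 0.72), with edgeR adjusted p = 1 for all 4. For arsenic 27 of 31 members had a positive coefficient, against 52.5% of all genes, and the median log2 fold change was 0.94, against 0.07. The 6 members under 0.05 were ULK1 (log2 fold change 2.91, SE 0.78, adjusted p = 0.077), MAP1LC3B (3.15, adjusted p = 0.114), GABARAPL1 (2.24, adjusted p = 0.212), SQSTM1 (2.27, adjusted p = 0.278), NPC1 (1.91, adjusted p = 0.352) and ATP6V0D1 (1.91, adjusted p = 0.435), all positive, where 9.17% of all genes passed. The SE is the log2 fold change divided by the square root of the F statistic. DESeq2 called ULK1 (adjusted p = 0.0301) and SQSTM1 (adjusted p = 0.00911). Without the arsenic 5 µM library edgeR called all 6, and 780 of 18117 genes in all, against 90 of 18237 with it. For caffeine, ULK1 had the smallest p (log2 fold change 1.98, SE 0.77, adjusted p = 0.552), followed by MCOLN1 (1.72, adjusted p = 0.707).

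An extra term for the 15 µM library, with 3 residual degrees of freedom, called 1 member, MAP1LC3B (log2 fold change 2.93 beyond the shared arsenic effect, SE 0.76, edgeR adjusted p = 0.0193), against 0.795% of all genes higher and 0.291% lower. That call was lost by DESeq2 (adjusted p = 0.0517) and by leaving out any 1 of 5 libraries (caffeine, exosomes, either acetaminophen combination, or arsenic 5 µM) (adjusted p = 0.0741 to 0.318). An extra term for copper called no member in edgeR or DESeq2, with 0 at an unadjusted p under 0.05 and 0% of all genes called in either direction. Its smallest p belonged to ATG12 (log2 fold change -1.59) and MAP1LC3B (-1.55). This term sets the copper library against the shared arsenic effect of the 5 µM and 15 µM libraries, not against 5 µM alone. MAP1LC3B had 40.9 CPM with copper, 17.5 CPM at 5 µM and 223 CPM at 15 µM, so its sign is opposite to that of copper over 5 µM. ATG12 had 27.9 CPM with copper, below 84.4 CPM at 5 µM and 83.8 CPM at 15 µM.

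Other genes of the pathway, taken from lists of known function, were set beside the members for arsenic 15 µM against the control, where 16.5% of all genes were higher and 14.4% lower. Of 28 other autophagosome genes tested, 16 were higher and 2 lower (median log2 ratio 1.23), of 17 V-ATPase subunits 7 and 1 (0.86), of 32 membrane, sorting and signalling genes 10 and 3 (0.47), of 17 cargo receptors and mitophagy genes 6 and 2 (0.64), and of 18 mTORC1, AMPK and TFEB regulators 8 and 0 (0.87). The 39 other hydrolases had 11 higher and 12 lower (median -0.29), and of the 5 member hydrolases 4 were higher and none lower. Of 14 NRF2 targets, 10 were higher and none lower (2.13). For the arsenic term edgeR called higher, among these lists, HMOX1, the haem oxygenase (log2 fold change 7.14, adjusted p = 0.00208), SLC7A11, the cystine carrier (4.09, adjusted p = 0.0141), OSGIN1 (3.81, adjusted p = 0.0257), SESN2, a stress-induced inhibitor of mTORC1 (5.06, adjusted p = 0.0171), and SGSH, a heparan sulfatase (3.6, adjusted p = 0.0325). The 15 µM term called RRAGC, a GTPase that ties mTORC1 to the lysosome (3.67, adjusted p = 0.00333; 78.4 CPM at 15 µM against 8.71 CPM in the control), ATP6V0D2, a V-ATPase isoform (adjusted p = 0.00416; 29.5 CPM at 15 µM against 0 counts in the control), SESN2 again (3.41, adjusted p = 0.0181) and GM2A, a lipid-binding activator, which fell (-3.49, adjusted p = 0.0466; 3.6 CPM at 15 µM against 32.9 CPM). The NRF2 target NQO1 fell in the caffeine term (-4.77, adjusted p = 0.0217), with 44.8 CPM with caffeine and 11.9 CPM with acetaminophen and caffeine, against 602 CPM in the control.

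The 5 members with TCACGTGA in their window were not the ones with the highest ratios at 15 µM: their median log2 ratio to the control was 0.96, against 1.33 for the 21 members with a window but without the motif. They had lower ratios with acetaminophen (median -1.33 against 0.18) and with arsenic 5 µM (-1.45 against 0.46). Of these 5, ATP6V0D1, CTSA and MCOLN1 have GC contents of 58.1% to 62.0% and were lower in both libraries, while ATG3 (39.9%) and LAMP1 (51.2%) were not apart. With trends removed the medians were -0.48 against 0.21 with acetaminophen and -0.84 against 0.55 with arsenic 5 µM, and of the 5 motif holders ATP6V0D1 alone stayed lower with acetaminophen and none at 5 µM. The motif holders had the lower median in every pair against the control and the higher one in every pair of treated libraries. For 15 µM over 5 µM the medians were 3.06 against 1.23, and 1.99 against 1.23 with trends removed. For acetaminophen with caffeine over caffeine they were 1.12 against 0.30, and 0.76 against 0.18. These pairs share libraries, and the cause was not tested.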

How the data were processed

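The submitters' processing notes name TopHat2 2.0.13, HTSeq 0.6.1 and GRCh37. The authors deposited raw counts per Ensembl gene for each of the 9 libraries. Neither the annotation release nor the strand setting is given in the sources used here, and overlapping and antisense genes may take each other's reads. HTSeq summary lines (42.3% to 70.3% of counts) were left out. Names, gene types, transcript length and GC content came from GENCODE 29 (GRCh38), with no coordinates converted. The members and lists were chosen with earlier results of these data known. Genes reaching 1 CPM in 2 or more libraries were TMM-scaled and tested with edgeR 4.0.16 (common dispersion 0.2835, prior degrees of freedom 32.44), beside DESeq2 1.42.0, in R 4.3.3 with limma 3.58.1. Pair ratios and figures used Python 3.11.15, scipy 1.17.1, pandas 2.3.3, numpy 2.4.6 and matplotlib 3.10.9. There is 1 library a condition, so the p-values test each term against a spread made of departures from the model. The edgeR step was run on simulated counts with a lower dispersion than fitted here and large changes equal in all arsenic libraries. That run checks the code and not the error rate in these data. Named in full were SQSTM1, the ATG8-type genes, called members, the 2 highest and 2 lowest members apart in each of 12 pairs, and the 2 smallest p per term. Alternatives were other size factors, no filter, protein-coding genes alone, trend removal, a 1.5-fold limit and leaving out libraries.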

Additional observations from a re-analysis of the deposited data

Results flagged for a closer look

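In 3 members acetaminophen was apart in both pairs, with and without caffeine, and in opposite directions. Signs also differed in members not apart in both pairs, among them CTSD (log2 ratio -3.41 without caffeine and 0.48 with it). The log2 ratio of acetaminophen with caffeine over caffeine minus that of acetaminophen over the control was 3.51 for MCOLN1, 3.63 for ATP6V0D1 and 2.45 for CTSA. Each rests on 4 single libraries. Tested as an acetaminophen by caffeine term in edgeR, the difference had an adjusted p = 1 for all 3. The acetaminophen library is also the one whose deviations correlated with GC content at r = -0.63, and with GC and length trends removed the differences were 1.90, 2.61 and 1.14 for MCOLN1, ATP6V0D1 and CTSA. MCOLN1 and CTSA were then no longer apart with acetaminophen alone (0.719 and 0.766 of the control), and ATP6V0D1 was still lower (0.429).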

How the results depend on the processing

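No paired analysis was possible because each condition has 1 library. A 1.5-fold limit in place of 2 gave 16 members apart for acetaminophen against control (10 at 2-fold), 7 for acetaminophen with exosomes against exosomes (3), 15 for acetaminophen with caffeine against caffeine (8), 2 for exosomes against control (0), 17 for acetaminophen with exosomes against acetaminophen (9), 10 for caffeine against control (6), 22 for acetaminophen with caffeine against acetaminophen (12) and 14 for arsenic with copper against control (9). In the same order, all genes had 17.6% higher and 15.2% lower, 7.53% and 10.7%, 19.5% and 20.3%, and 7.77% and 3.62%. From acetaminophen with exosomes against acetaminophen on, they had 12.7% and 14.4%, 17.2% and 12.5%, 23.0% and 20.1%, and 14.7% and 10.1%. GC and length trend removal gave 3 for acetaminophen against control, 5 for acetaminophen with exosomes against acetaminophen and 3 for caffeine against control. In these pairs all genes then had 8.44% higher and 7.0% lower, 6.42% and 5.85%, and 12.3% and 6.37%. The number of members called for the arsenic term, 0 in the additive model, was 2 without a count filter (ULK1, MAP1LC3B), 2 by DESeq2, 4 with dose as a linear term and 0 to 6 on leaving out 1 library, with 6 without arsenic 5 µM and 1 without arsenic with copper. For the 15 µM term, called in 1 member, it was 0 by DESeq2, 3 after trend removal, 4 without the acetaminophen and arsenic 5 µM libraries together, and 0 to 6 on leaving out 1 library, with 6 without arsenic with copper. The last 2 alternatives for this term were chosen after seeing the data. For the arsenic term, calls over all genes were 90 in the additive model, 269 of 36993 without a filter, 175 by DESeq2 and 562 with dose. They were 780 without arsenic 5 µM and 163 without arsenic with copper. For the 15 µM term, calls over all genes also rose in the settings with 3, 4 and 6 members. ATG12 in the exosomes term (log2 fold change -0.94, not called) turned to 0.12 without the acetaminophen library, in a range of -1.83 to 0.12 on leaving out 1 library, and to 0.01 without acetaminophen and arsenic 5 µM. DESeq2 size factors moved the median log2 ratio of all genes for caffeine against control to -0.15, against 0.03 with TMM, and for exosomes against control to -0.17, against 0.00; members apart for caffeine were then 2 higher and 2 lower. The causes were not tested. Depth limits the low members: TFEB and GABARAP rest on 0 to 45 counts a library.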
